A study of Mus musculus with 9 samples.

Results

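Adamts3 and Apod, a secreted metalloproteinase and a secreted lipid carrier, were each measured by 1 probe among the 166924 probes of a 1-color array on which mRNAs and noncoding RNAs of the mouse colon were hybridized. Both genes were chosen from the values of these same arrays, for a signal that was higher after DSS than in Control, and Apod also for a signal that was lower with PAMK than after DSS alone. Their levels are therefore given as a description. Where a gene is said below to pass a threshold in these comparisons, this is no test of it. The 9 samples were whole colonic tissue of male C57BL/6J mice, 10 weeks old, in groups of 3. Control mice drank water without DSS and were given saline by gavage from day 8 to day 14. DSS mice drank 3% dextran sulfate sodium (DSS), a sulfated polysaccharide that injures the colonic epithelium, for 7 days and then received the same saline over the same days. DSS+PAMK mice drank 3% DSS for 7 days and were then given 200 mg/kg PAMK, a polysaccharide from the rhizome of Atractylodes macrocephala, by gavage from day 8 to day 14. Tissue was taken after the last dose, so all mice had been without DSS since day 8. In whole tissue, a change in the number of cells of a type and a change in RNA per cell cannot be told apart.

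ADAMTS3 is a zinc metalloproteinase of the extracellular matrix. It removes the amino-terminal propeptide of fibrillar procollagens, cleaves the glycoprotein reelin, and, held at the cell surface by the cofactor CCBE1, cuts the precursor of VEGF-C into the form that drives the growth of lymphatic vessels. APOD is a lipocalin, a small secreted protein with a barrel-shaped pocket. Its pocket binds arachidonic acid and progesterone, and in structure it belongs with the lipocalins rather than with the other apolipoproteins beside which it travels in plasma. Both genes are known from connective tissue cells, and Apod also from glia. Of 22 fibroblast markers and 10 markers of enteric glia and Schwann cells, 0 were linked to a probe by name, so a stromal source of either signal was not examined and the genes are referred to by name only.

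The probes themselves are shown because each gene's level rests on 1 sequence of 60 bases. Capitals mark the longest run that a probe shared, on the same strand, with any other probe of the array.
Adamts3: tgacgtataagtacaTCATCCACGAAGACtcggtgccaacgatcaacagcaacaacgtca
Apod: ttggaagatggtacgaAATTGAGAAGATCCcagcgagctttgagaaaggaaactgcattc
This longest shared run was 14 bases for Adamts3, from base 16 to base 29, and 14 bases for Apod, from base 17 to base 30. It covers exact runs only and says nothing of likeness with mismatches. On the opposite strand the longest shared run was 15 bases for each. The Adamts3 probe had 46.7% G and C and the Apod probe 43.3%, beside a median of 45% over all probes. Read in its 3 frames, the Adamts3 probe was free of stop codons in 1 and the Apod probe in 2. The probes of the 2 genes had no more than 5 bases in a row in common.

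The signal of Adamts3 was low on every array. Before normalization, its processed signal, in scanner units after background correction, was 23.5, 14.4 and 16.6 on the Control arrays. It was 27.2, 36.9 and 34.9 on the DSS arrays. It was 11.3, 13.9 and 23.3 on the DSS+PAMK arrays. Already at this stage the 3 DSS arrays lay above the 3 arrays of each of the other groups, although the lowest DSS array and the highest Control array were separated by about as much as their errors. The error that the image software attached to the signal was 3.31 on DSS array 1 and 3.69 on Control array 1, and over the 9 arrays it ranged from 11.9% to 23.2% of the signal.

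Adamts3 stood between 1.28 and 1.93 times its local background before subtraction. The spot was marked as well above background, the image software's stricter mark, on 8 of the 9 arrays, and the exception was DSS+PAMK array 1, where the signal of 11.3 was close to the lowest signal that carried the mark on that array, 10.8. On all 9 arrays Adamts3 was marked positive and significant, the looser mark. Its signal was from 4.82 to 15.8 times the median of the 600 negative control spots of the same array, which carry no mouse sequence. The DSS+PAMK mean of Adamts3 therefore includes 1 array without the stricter mark, and the group carried that mark on 2 of 3 arrays.

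Apod was far above background on every array. Its processed signal was 238, 180 and 231 on the Control arrays. It was 376, 584 and 687 on the DSS arrays. It was 194, 208 and 393 on the DSS+PAMK arrays. Before normalization the Control and DSS arrays did not overlap, but DSS+PAMK array 3, at 393, lay above DSS array 1, at 376. Apod was marked well above background on 9 of 9 arrays, at 5.81 to 17.3 times its local background, with an error of 10.0% to 10.1% of the signal. Neither gene had a saturated spot.

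**Figure D1:**
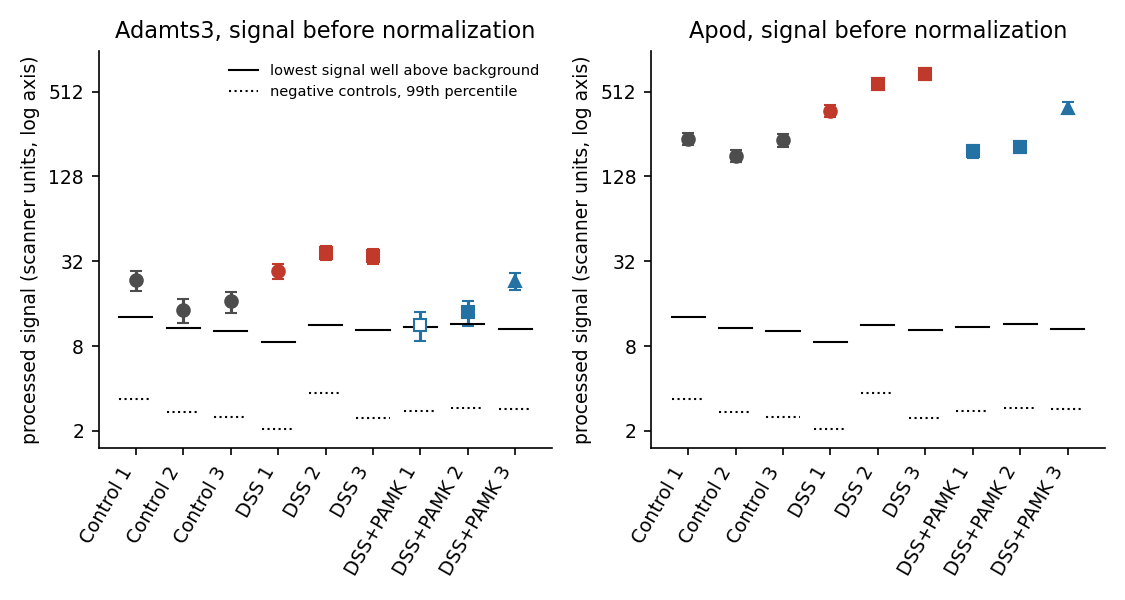
Processed signal of Adamts3 (left) and Apod (right) on each array before normalization, in scanner units on a log axis, with the error given by the image software. Solid lines mark the lowest signal well above background on that array and dotted lines the 99th percentile of its negative controls; the open symbol, Adamts3 on DSS+PAMK array 1 at 11.3, was not well above background, and symbol shapes are slides (circles 1, squares 2, triangle 3).

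Quantile normalization, which gives all 9 arrays the same distribution of log2 signals, moved the 2 genes differently because they lie at different intensities. On Control array 1 it shifted Adamts3 by -0.68 on the log2 scale and raised Apod by 0.34. On DSS+PAMK array 1 it raised Adamts3 by 0.41 and shifted Apod by -0.05. Over the 9 arrays the shift ranged from -0.68 to 0.41 for Adamts3 and from -0.25 to 0.34 for Apod. Before this step the 3 Control arrays spanned 3.85 to 4.55 for Adamts3 on the log2 scale, a wider range than the normalized values that follow.

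After normalization, the log2 level of Adamts3 was 3.87, 3.76 and 3.95 on the Control arrays. It was 5.10, 5.17 and 5.01 on the DSS arrays. It was 3.92, 4.15 and 4.27 on the DSS+PAMK arrays. The DSS arrays formed a tight set of their own, and the lowest of them lay 1.05 above the highest Control array and 0.73 above the highest DSS+PAMK array. The size of the first gap depended on quantile normalization. Before it, the lowest DSS array was at 4.77 and the highest Control array at 4.55. With each array only shifted to a common 75th percentile, these were at 4.99 and 4.72. The group means were 3.86 ± 0.10 (SD, n = 3) in Control, 5.09 ± 0.08 (SD, n = 3) in DSS and 4.11 ± 0.18 (SD, n = 3) in DSS+PAMK. In order of level, DSS came first, then DSS+PAMK, then Control, and the last 2 groups overlapped.

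The log2 level of Apod was 8.23, 7.43 and 7.88 on the Control arrays. It was 8.79, 8.99 and 9.24 on the DSS arrays. It was 7.54, 7.80 and 8.37 on the DSS+PAMK arrays. The DSS arrays were again the highest, but the other groups were wide, with a range of 0.80 in Control and 0.83 in DSS+PAMK. The lowest DSS array lay 0.56 above Control array 1 and 0.42 above DSS+PAMK array 3. The group means were 7.85 ± 0.40 (SD, n = 3) in Control, 9.01 ± 0.22 (SD, n = 3) in DSS and 7.90 ± 0.42 (SD, n = 3) in DSS+PAMK. Control and DSS+PAMK differed by far less than their spread.

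**Figure D2:**
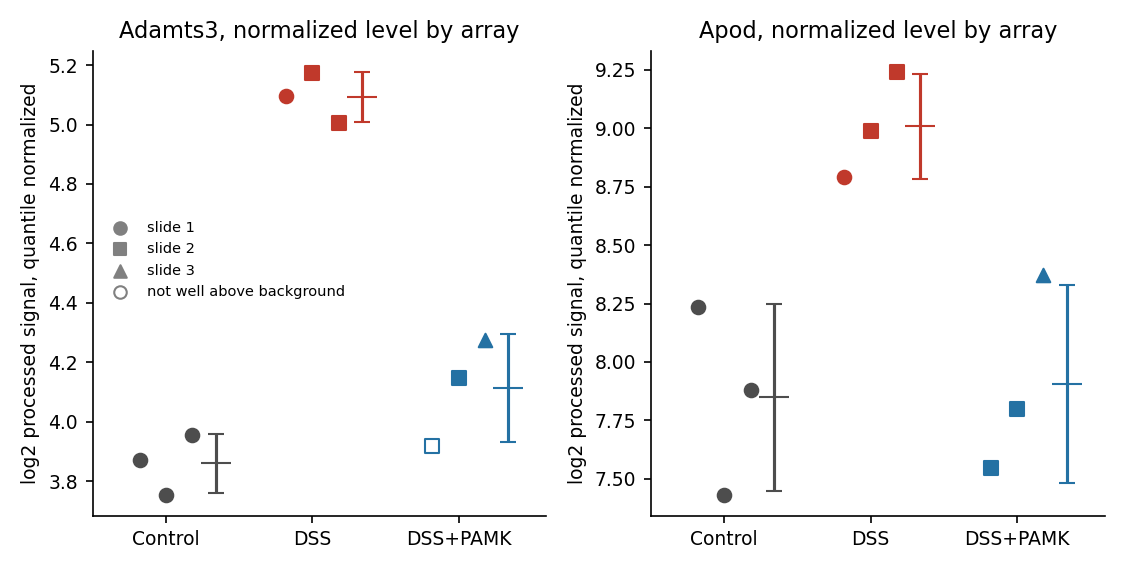
Log2 processed signal after quantile normalization for Adamts3 (left) and Apod (right), 1 point per array, with the group mean and SD (n = 3) as a bar. The vertical axes do not start at 0; symbol shapes are slides and the open symbol was not well above background. DSS arrays lie at 5.01 or above for Adamts3 and at 8.79 or above for Apod, above all arrays of the other groups.

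Adamts3 was 1.23 ± 0.15 (SE) higher in DSS than in Control on the log2 scale, 2.35-fold, and Apod was 1.16 ± 0.27 (SE) higher, 2.23-fold. These standard errors come from a limma fit of the 3 group means over all 99612 tested probes. Both genes passed the thresholds of the study's methods in this comparison, 2-fold or more with an unadjusted p no higher than 0.05, and so did 1.98% of the tested probes in the same direction. Every DSS array lay above every Control array for both genes, and for 10.5% of the tested probes. As this comparison chose the genes, nothing is read from these counts. A difference as large as that of Adamts3 or larger was found for 1333 probes (1.34%), and as large as that of Apod for 1574 probes (1.58%).

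Adamts3 was lower in DSS+PAMK than in DSS, with a difference of -0.98 ± 0.15 (SE), 1.97-fold, and so fell short of the 2-fold threshold by a small margin. Nothing is read from this margin, as the DSS+PAMK mean includes array 1, where Adamts3 was not well above background. Apod was lower with a difference of -1.10 ± 0.27 (SE), 2.15-fold, a value that was among those that chose it. Of the 2 genes, Apod alone lay past the thresholds given above, beside 1.06% of the tested probes, and nothing is read from this count. Every DSS+PAMK array lay below every DSS array for both genes, and for 6.53% of the tested probes. Both comparisons share the 3 DSS arrays, so a high value on these arrays enters both.

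Against Control, DSS+PAMK arrays differed by 0.25 ± 0.15 (SE) for Adamts3, 1.19-fold, and by 0.06 ± 0.27 (SE) for Apod, 1.04-fold. Neither gene was called and both had overlapping groups. The same held for most tested probes, as 2.67% were called and 24.5% had groups that did not overlap, in either direction. Nothing is read from these counts. The sign of the Adamts3 difference depended on the normalization. It was -0.27 ± 0.28 (SE) when each array was only shifted to a common 75th percentile, and -0.20 ± 0.31 (SE) without normalization between arrays, an alternative chosen after the data were seen. For Apod the sign turned with the slide as a block, at -0.50 ± 0.44 (SE), and when Control replicate 2 or DSS+PAMK replicate 3 was left out, at -0.15 and -0.18. A level of Apod or Adamts3 in DSS+PAMK above or below that of Control was thus not resolved with 3 arrays per group.

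The arrays lay on 3 slides that did not hold the groups evenly. Slide 1 held the 3 Control arrays and DSS array 1, slide 2 held DSS arrays 2 and 3 and DSS+PAMK arrays 1 and 2, and slide 3 held DSS+PAMK array 3. Within slide 1, Adamts3 on DSS array 1 was 1.24 above the Control mean, and between 1.14 and 1.34 above the single Control arrays. Within slide 2, the DSS+PAMK mean of Adamts3 minus the DSS mean was -1.06. Adamts3 on the DSS array of slide 1 and on the DSS arrays of slide 2 were at 5.10 and a mean of 5.09, and Adamts3 on DSS+PAMK array 3, alone on slide 3, was 0.24 above the DSS+PAMK mean of slide 2. The Adamts3 differences inside a slide were thus about as large as those over all arrays.

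For Apod, DSS array 1 was 0.95 above the Control mean of slide 1, and between 0.56 and 1.36 above the single Control arrays. Within slide 2, the DSS+PAMK mean of Apod minus the DSS mean was -1.44. Apod was 0.32 higher on the DSS arrays of slide 2 than on that of slide 1, and 0.70 higher on DSS+PAMK array 3, alone on slide 3, than on the DSS+PAMK arrays of slide 2. The distance between DSS and DSS+PAMK for Apod was therefore larger inside slide 2 than over all arrays. With the slide as a fixed block, the Apod difference between DSS and Control was 0.95 ± 0.33 (SE), under 2-fold, and that between DSS+PAMK and DSS was -1.44 ± 0.29 (SE). With the same block Adamts3 gave 1.24 ± 0.21 (SE) and -1.06 ± 0.18 (SE). For both genes the blocked difference between DSS and Control rests on 1 DSS array, that of slide 1. Its SE comes from the spread of arrays that shared both group and slide. Control and DSS+PAMK arrays shared 0 slides, so their difference has no value within a slide.

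The low signal of Adamts3 made its differences depend on how background was treated. With a normexp correction of the mean signal and an offset of 50, the Adamts3 difference between DSS and Control was 0.33 ± 0.07 (SE), and that between DSS+PAMK and DSS was -0.29 ± 0.07 (SE). The offset alone exceeds the processed signal of Adamts3 on all 9 arrays, so it compresses these differences by construction. The direction stayed the same. Apod, well above the offset, gave 0.97 ± 0.20 (SE) and -0.94 ± 0.20 (SE) under the same correction, both under 2-fold. Shifting each array to its 75th percentile gave 0.86 ± 0.28 (SE) and -1.13 ± 0.28 (SE) for Adamts3, which then fell under 2-fold in the first comparison and passed it in the second. For Apod the same shift gave 1.29 ± 0.25 (SE) and -1.13 ± 0.25 (SE). Whether Adamts3 or Apod passed 2-fold therefore depended on the processing in both comparisons, Apod under normexp and Adamts3 also under the shift.

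Leaving out any 1 of the 9 arrays kept the sign of both differences for both genes. With each array left out in turn, the Adamts3 difference between DSS and Control ranged from 1.18 to 1.29, and that between DSS+PAMK and DSS from -1.06 to -0.86. For Apod the ranges were 0.96 to 1.36 and -1.34 to -0.92. The arrays that moved Apod most were the extremes of its wide groups, Control replicates 1 and 2 and DSS+PAMK replicates 1 and 3. Single arrays moved both genes across 2-fold. The Apod difference between DSS and Control was 0.96 without Control replicate 2. Between DSS+PAMK and DSS it was -0.92 without DSS+PAMK replicate 1 and -0.98 without DSS replicate 3, under 2-fold in each case. Adamts3 passed 2-fold between DSS+PAMK and DSS without Control replicate 1 (-1.02), DSS replicate 3 (-1.03) or DSS+PAMK replicate 3 (-1.06).

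**Figure D3:**
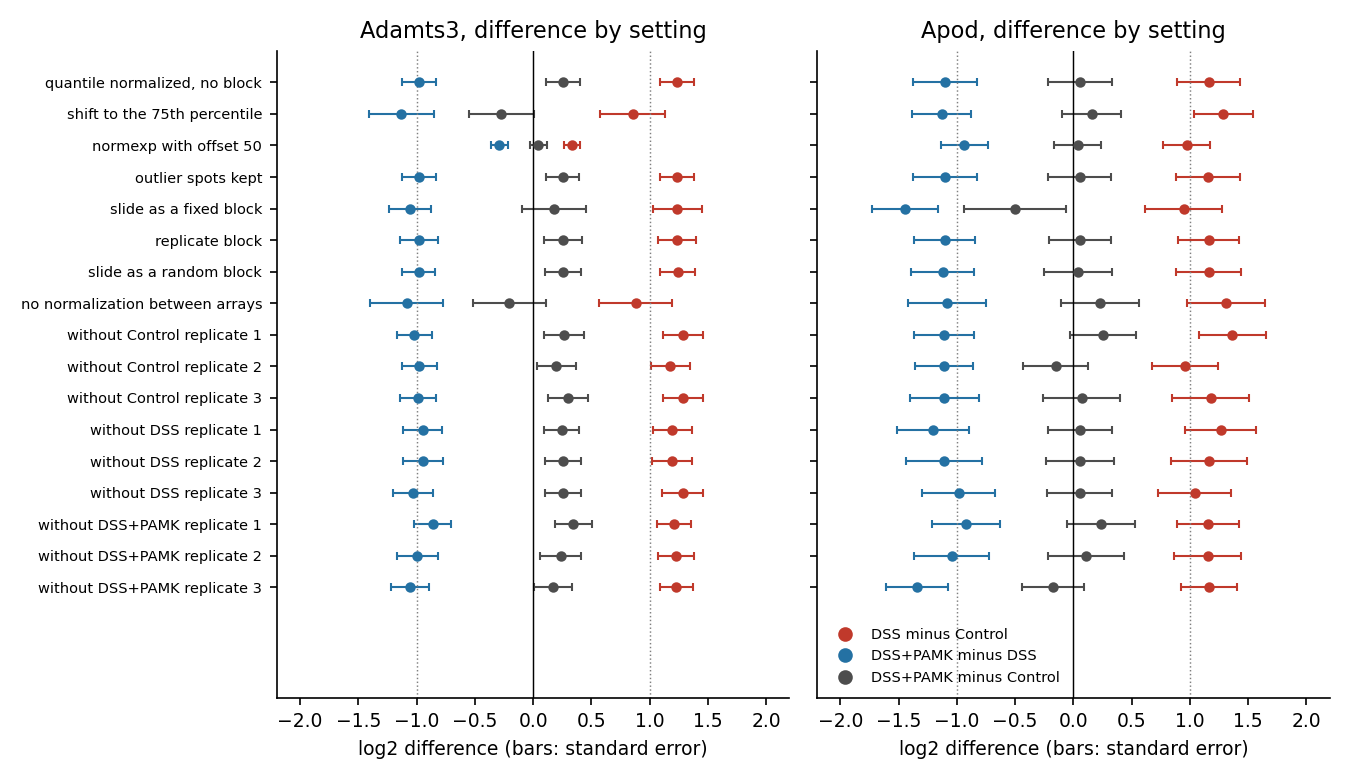
Log2 differences between groups for Adamts3 (left) and Apod (right), 1 line per setting of the processing or array left out, with the standard error of the fit. Dotted lines mark a fold of 2. DSS minus Control stayed above 0 and DSS+PAMK minus DSS below 0 in every setting shown, while DSS+PAMK minus Control lay on both sides of 0 for both genes; normexp brought the Adamts3 differences to 0.33 and -0.29.

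Over the 9 arrays, the levels of Adamts3 and Apod had a Pearson r of 0.91 and a Spearman rho of 0.83. This describes 3 groups of 3, and both genes were chosen for being high in the DSS group, so a high r is built in. After each group's mean was subtracted, r was 0.61. Control array 2 had the lowest level of both genes, and among DSS+PAMK arrays both were highest on array 3 and lowest on array 1. Among DSS arrays the order differed, with Adamts3 highest on array 2 and Apod on array 3. Of 99589 other tested probes, 217 (0.218%) had a higher r with Adamts3 than Apod had, and 59 (0.0592%) had a higher r with Apod than Adamts3 had.

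**Figure D4:**
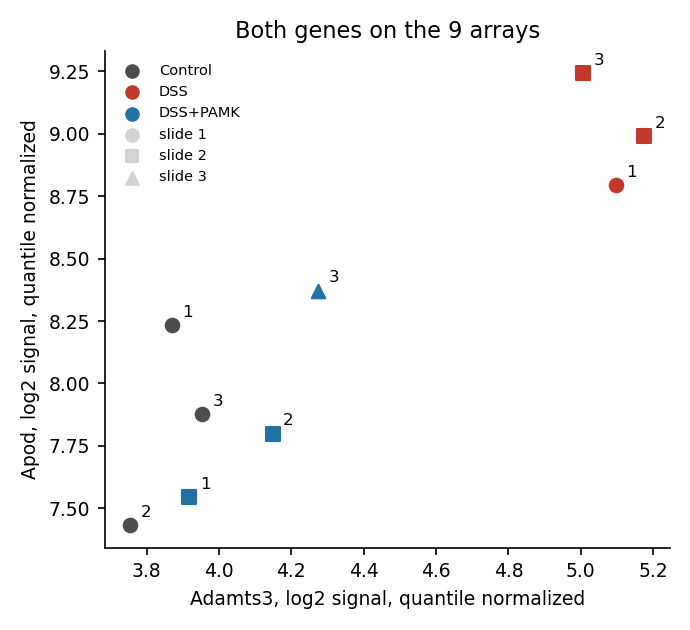
Log2 level of Apod against that of Adamts3 on the 9 arrays after quantile normalization; numbers are replicates, colors are groups and shapes are slides. The 3 DSS arrays lie apart at the upper right, at 5.01 or above for Adamts3, and the Control and DSS+PAMK arrays mix at the lower left.

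Other genes were compared with both through the 181 probes that the study's lists pair with a symbol, all of them picked by the study on these arrays. Their typical r with Adamts3 was therefore already high, with a median of 0.84 over 173 genes, and 0.70 with Apod. The 5 genes most like Adamts3 over the 9 arrays were Kng2, a kininogen, with r = 0.97, the cornified envelope gene Lce3a with r = 0.96, the renin gene Ren1 with r = 0.95, Itgam, the integrin chain of macrophages and neutrophils, with r = 0.95, and Cyp7b1, an oxysterol hydroxylase, with r = 0.95. Apod was at rank 42 of this list. With group means subtracted, r with Adamts3 was 0.54 for Kng2, 0.66 for Lce3a, 0.60 for Ren1, 0.25 for Itgam and 0.47 for Cyp7b1. Adamts3 and these 5 genes were all highest on the 3 DSS arrays. Kng2 differed by 1.57 ± 0.19 (SE) between DSS and Control, beside 1.23 for Adamts3. Ren1 was well above background on 1 of 3 Control arrays and Lce3a on 2 of 3, and each on 2 of 3 DSS+PAMK arrays. The size of their differences is therefore not given, and their r and rank rest partly on values near background. Kng2 was also well above background on only 2 of 3 DSS+PAMK arrays, so its r and first rank rest partly on such a value.

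The 5 genes most like Apod were Depp1 with r = 0.94, the pseudogene Zscan4-ps2 with r = 0.93, Ceacam12, a member of the carcinoembryonic antigen family, with r = 0.93, Reg3g, an antimicrobial lectin of the epithelium, with r = 0.92, and the growth factor gene Pdgfc with r = 0.92. Adamts3 was at rank 8. With group means subtracted, r with Apod was 0.81 for Depp1, 0.84 for Zscan4-ps2, 0.71 for Ceacam12, 0.67 for Reg3g and 0.78 for Pdgfc. Like Apod, all 5 were low on Control array 2 relative to the other Control arrays. In size, Apod was close to Depp1, whose difference was 1.11 ± 0.32 (SE) between DSS and Control and -1.07 ± 0.32 (SE) between DSS+PAMK and DSS. Single arrays took both Depp1 differences under 2-fold. The first was 0.85 without Control array 2, and the second was -0.80 without DSS+PAMK array 1. Without DSS array 3 they were 0.98 and -0.94. Apod was far below Reg3g in size, at 5.05 ± 1.19 (SE) and -4.90 ± 1.19 (SE) for Reg3g. The first of these was 3.66 without Control array 2.

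**Figure D5:**
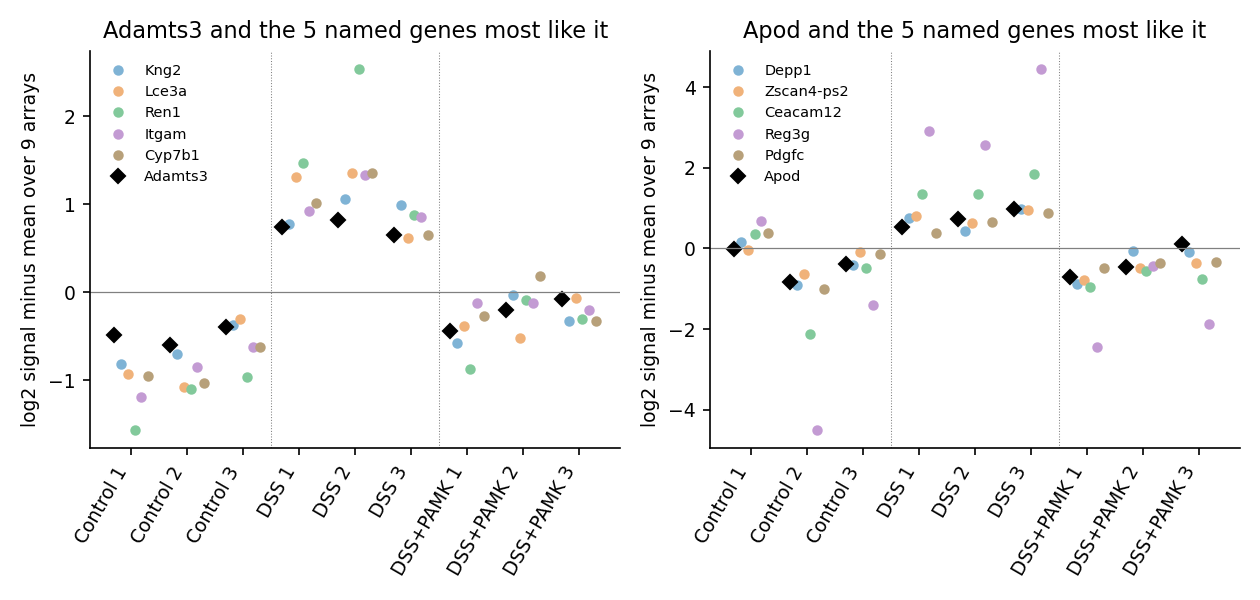
Log2 level minus the gene's mean over the 9 arrays for Adamts3 (left, diamonds) and Apod (right, diamonds) and the 5 named genes with the highest Pearson r with each. Dotted lines separate Control, DSS and DSS+PAMK; the named genes were picked by the study on these arrays, and Reg3g, with an r of 0.92 with Apod, spans the widest range.

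Markers of other cell types could be set beside the 2 genes for 8 of 144 listed genes, all picked by the study on these arrays. In DSS against Control, 7 of the 8 were called higher, beside 119 of all 174 named genes tested (68.4%), so a high count is nearly built in. The 7 include Cxcr2 and Ms4a2, which were well above background on 0 of 3 Control arrays and so had to differ. Itgam, Ccr2 and Fcgr1, of monocytes and macrophages, were higher by 1.93 ± 0.19, 2.68 ± 0.27 and 1.52 ± 0.32 (SE). Cxcr2, of neutrophils, was well above background on the 3 DSS arrays only, and the mast cell gene Ms4a2 on all DSS and DSS+PAMK arrays, so the size of these differences is not given. Cpa3, also of mast cells, was higher by 3.18 ± 0.34 (SE), and Foxp3, of regulatory T cells, by 1.74 ± 0.18 (SE). Slc26a3, the chloride transporter of surface colonocytes, was not called, at -0.43 ± 0.19 (SE), or -0.26 without Control array 2, and its log2 level was 12.4 or more on all 9 arrays. In DSS+PAMK against DSS, Itgam, Fcgr1, Cxcr2 and Cpa3 were called lower, beside 104 of the 174 named genes (59.8%). Slc26a3 was called higher, by 1.12 ± 0.19 (SE), beside 30 of the 174 (17.2%). Ccr2, Ms4a2 and Foxp3 were not called, at -0.86 ± 0.27, -0.54 ± 0.29 and -0.51 ± 0.18 (SE). The lower call of Cxcr2 was built in, as this gene passed the filter on dim probes only through the DSS arrays. Cpa3 only just passed 2-fold and gave -0.95 without DSS array 1 and -0.89 without DSS+PAMK array 1. Fcgr1, at -1.10 ± 0.32 (SE), gave -0.87 without DSS array 1 and -0.94 without DSS+PAMK array 3. Of these 8 genes, Itgam had the highest r with Adamts3, at 0.95, and with Apod, at 0.76. The first of these was 0.25 after each group's mean was subtracted. The part of immune cells in the levels of Adamts3 and Apod was not tested.

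The pathway lists drawn up around the genes, of 83 genes in all, had 0 genes linked to a probe by name. They covered the partners and substrates of ADAMTS3 (17 genes, such as Ccbe1, Vegfc and Reln), the ADAMTS family, fibrillar collagens, lipocalins and apolipoproteins. Whether procollagens, Vegfc or other lipocalins moved with Adamts3 and Apod was therefore not analysed here. In their place a few named genes of related function were taken after their values were known, and they are given as values only. Beside Adamts3, the matrix metalloproteinase gene Mmp3 was higher in DSS than in Control by 4.16 ± 0.51 (SE) and the proteinase inhibitor gene Serpine2 by 1.65 ± 0.39 (SE). Between DSS+PAMK and DSS, Mmp3 and Serpine2 differed by -2.57 ± 0.51 and -1.44 ± 0.39 (SE). Mmp7, another matrix metalloproteinase gene, was well above background on 2 of 3 Control arrays and on all arrays of the other groups, and the size of its difference is not given. Mmp27 was well above background on 0 of 3 Control arrays, 3 of 3 DSS arrays and 2 of 3 DSS+PAMK arrays. Beside Apod, which binds arachidonic acid, the arachidonate enzymes Ptgs2 and Alox15 were higher in DSS by 1.79 ± 0.46 and 1.93 ± 0.39 (SE) and lower in DSS+PAMK than in DSS, with differences of -1.52 ± 0.46 and -1.30 ± 0.39 (SE). The phospholipase gene Pla2g4c went the other way, with -5.28 ± 1.04 (SE) between DSS and Control and 1.97 ± 1.04 (SE) between DSS+PAMK and DSS, the second not called and moved to 0.63 without DSS+PAMK array 1 and to 3.12 without DSS+PAMK array 2. Another phospholipase gene, Pla2g7, was higher in DSS by 1.39 ± 0.15 (SE) and differed by -0.31 ± 0.15 (SE) between DSS+PAMK and DSS. Osbpl6, of an oxysterol-binding family, was lower in DSS than in Control, at -1.04 ± 0.24 (SE), and higher in DSS+PAMK than in DSS, by 1.03 ± 0.24 (SE). Single arrays took some of these values under 2-fold. Osbpl6 gave -0.81 without Control array 2 and 0.88 without DSS+PAMK array 1. Without DSS array 1 it gave -0.95 between DSS and Control and 0.94 between DSS+PAMK and DSS. Alox15 gave -0.96 between DSS+PAMK and DSS without DSS+PAMK array 2. Itih5, of a hyaluronan-binding family of the matrix, differed by -0.20 ± 0.28 (SE) between DSS and Control, or 0.16 without Control array 2. Between DSS+PAMK and DSS it differed by 1.05 ± 0.28 (SE). The mesenchymal transcription factor gene Prrx1 was higher in DSS by 1.58 ± 0.24 (SE). Between DSS+PAMK and DSS it differed by -1.21 ± 0.24 (SE), or -0.999 without DSS array 2.

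The sequences before the 2 start sites differed in base composition. In the RefSeq promoter table (GRCm38.p6), which matched both genes, the 250 bases before the Apod start, chr16:31314809-31315058 on the minus strand, held 36.4% G and C and 4 CpG, marked in capitals.
Apod: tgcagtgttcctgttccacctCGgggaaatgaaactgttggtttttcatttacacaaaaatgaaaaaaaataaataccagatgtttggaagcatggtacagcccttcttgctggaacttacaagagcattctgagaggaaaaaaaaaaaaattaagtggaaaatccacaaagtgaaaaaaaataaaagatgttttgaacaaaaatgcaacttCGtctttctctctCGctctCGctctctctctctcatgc
The 250 bases before the listed Adamts3 start held 78% G and C and 35 CpG. The ratio of observed to expected CpG was 0.484 for Apod and 0.922 for Adamts3, higher than in 58.5% and 89.9% of 32841 promoter windows. Both windows were searched on both strands for the letters of 5 motifs. TATAAA, the TATA box, was in 12.4% of all windows. CCAAT, the CCAAT box, was in 33.9% of them. GGGCGG, the GC box, was in 32.7%. The AP-1 letters TGANTCA, where N is any base, were in 6.75%, and the STAT letters TTCNNNGAA in 7.02%. The Apod window held 0 matches. The Adamts3 window held 1, to the GC box, 47 bases before the start. An absent match says only that the letters are not in the window.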

How the data were processed

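The authors hybridized each of 9 colonic RNA samples alone to a 1-color Agilent array. The intensity values the authors deposited were read from the scans by Feature Extraction 10.7.1.1 and are corrected for background on a linear scale; the flags and pixel counts the authors deposited (other) were used as marks of quality. Between-array normalization was redone here. Control spots and outlier spots were left out, quantile normalization over the arrays was applied to log2 processed intensity, and spots of a probe were averaged. The filter kept probes that in 1 group or more were well above background on all its arrays (99612 of 166924). Group means were fitted with limma 3.58.1 in R 4.3.3 (statmod 1.5.0, data.table, version 1.17.8), as tested on simulated data. Replicates are separate samples by their labels, and 3 arrays per group limit precision.

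The members and lists were chosen with earlier results of these data known. Symbols came from supplementary sheets (181 probes, 174 symbols, 173 in the gene name table). Genes named are the 2 members, all linked genes of the ADAMTS3 list, from each other list up to 4 called genes per comparison and 2 not called, and the 5 named genes with the highest Pearson r with each member; others are marked. A gene with several probes was read from its tested probe of highest mean. Alternatives were another normalization, normexp, outlier spots kept, other filters on dim probes, slide or replicate number as a block, only the groups compared, the methods' t-test and each array left out.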

Additional observations from a re-analysis of the deposited data

How the results depend on the processing

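Adamts3 and Apod kept the sign of DSS minus Control and of DSS+PAMK minus DSS under 6 alternatives, beside a replicate block that cannot move them in this balanced design, and with each of 9 arrays left out. Adamts3 gave 0.86, -1.13 and, for DSS+PAMK minus Control, -0.27 with the shift to the 75th percentile, 0.33, -0.29 and 0.044 with normexp, and 0.88 and -0.20 for the comparisons with Control without normalization between arrays. Apod gave -0.50 for DSS+PAMK minus Control with slide as a fixed block. The signal of Adamts3 was at most 1.93 times its local background, with an error from the image software of 11.9% to 23.2% of the signal.

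Over all probes, limma called 3045 in DSS vs Control, 1698 in DSS+PAMK vs DSS and 2663 in DSS+PAMK vs Control, and 175, 0 and 0 after Benjamini-Hochberg adjustment (13123, 7192 and 13874 at an unadjusted p of 0.05 or less at any fold). In the same order, counts were 614, 337 and 341 with normexp, 5472, 4462 and 5004 without a filter on dim probes, 1530, 693 and 1357 with a filter on all 9 arrays, and 1907, 1019 and 1619 with the methods' t-test (0, 0 and 0 after adjustment). Slide as a fixed block gave 9868 and 10652 against Control; the shift gave 5032 in DSS+PAMK vs Control, with 16.6% higher in place of 61.9%, and in DSS vs Control 30.5% higher in place of 64.7%, where it moved the median of all probes to -0.11. With 1 array left out, counts ranged from 2879 to 4832 (without DSS replicate 2), from 1443 to 3899 (without DSS replicate 2) and from 1839 to 6013 (without Control replicate 2). The count of 175 after adjustment was 0 without any 1 Control array or DSS replicate 1, 13 without DSS replicate 2, 244 without DSS replicate 3, and 7, 11 and 1 without DSS+PAMK replicates 1, 2 and 3; the 0 in DSS+PAMK vs DSS was 17 without DSS replicate 2, and that in DSS+PAMK vs Control 5 without Control replicate 2. The causes were not tested.

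Replicate numbers did not pair the arrays: 0 of 9 same-numbered pairs had correlated deviations above 0.1 (-0.20 to 0.09). With the replicate block the counts were 2951, 1701 and 2704. The counts of pathway and family list genes have no value, as 0 of these genes were linked.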
